A study of Mus musculus with 12 samples.

Results

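The cyclin-dependent kinase (CDK) inhibitors described here are 8 genes chosen by name, Cdkn1a, Cdkn1b, Cdkn1c, Cdkn2a, Cdkn2b, Cdkn2c, Cdkn2d and Cdkn3, out of 46103 genes listed in the expression files. RNA was sequenced from 12 libraries, each made from 100 sorted cells that were BCR-ABL1+, CD27+ and LSK (lineage-negative, Sca1+ and c-Kit+). The cells came from bone marrow and spleen of C57BL/6 mice with a chronic myeloid leukemia (CML)-like disease. To produce it, marrow cells of 5-FU-treated donor mice were transduced with a BCR-ABL1-IRES-GFP retrovirus and given to lethally irradiated recipients. All donors carried Vav1-Cre, which acts in blood cells, and a Rosa26 reporter of the G0 phase, the G0 marker (G0M). DP cells were G0M+CD27+ cells of vehicle-treated mice, which the labels call CML stem cells, and SP cells were G0M-CD27+ cells of the same treatment, labelled CML progenitors. IMDP and IMSP cells were the same 2 populations from imatinib-treated mice. Imatinib blocks the kinase activity of BCR-ABL1 and was dosed by gavage at 40 mg/kg once daily, starting on day 10 after transplantation. Each group had 3 libraries. No label ties a library to an animal, so p-values measure the spread between these libraries, which may be partly technical. Any untransformed host or donor cells that passed the gates cannot be told apart in these RNA values.

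CDKs drive the cell cycle when bound to cyclins, and the inhibitors hold them back. The Cip/Kip proteins p21 (Cdkn1a), p27 (Cdkn1b) and p57 (Cdkn1c) bind cyclin-CDK complexes, and p57 and p27 are known for their part in the quiescence of hematopoietic stem cells. The INK4 proteins p16 (Cdkn2a), p15 (Cdkn2b), p18 (Cdkn2c) and p19 (Cdkn2d) bind CDK4 and CDK6 and keep cyclin D away. Cdkn3 encodes a phosphatase, also called KAP, that removes the activating phosphate from CDKs. Much of the control of p27 lies in protein turnover, which RNA does not show. G0M is a fluorescent mVenus fused to p27K-, a p27 mutant without CDK inhibitory activity, and it accumulates in cells in G0 because p27 is degraded on entry to the cycle. The transgene carries the Cdkn1b coding sequence, so its reads and those of the gene itself cannot be told apart.

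Cdkn3 was lower in G0M+ than in G0M- cells under both treatments, with the largest difference among the 6 members that could be tested. It reached the level needed for testing only in G0M- libraries, so it had to differ to be tested. Cdkn2d was called lower between IMDP and IMSP cells and averaged over treatments, but not between DP and SP cells, and both calls were lost under some other scalings. Cdkn1b, on whose protein the marker is built, lay at 5.90 to 9.92 RPKM in every library and no test called it. Cdkn1a and Cdkn1c had their highest group means in DP and their lowest in IMSP cells, but libraries of one group differed so much that neither passed the test without a library pairing. When libraries with neighbouring numbers were compared, Cdkn1c was higher in the G0M+ library of 6 of 6 pairs and Cdkn1a of 5 of 6. A fit with this pairing called 46.9% of all genes tested averaged over treatments. The share of all genes as uniform across the pairs was not counted.

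Expression was deposited as RPKM, reads per kilobase of transcript scaled to the library total, so levels can be compared between genes of a library. Comparisons between libraries also depend on the scaling, and some calls changed with it, as given below. The totals behind the RPKM were 11.4 to 20.6 M reads a library, of which 25.9% to 37.1% fell on listed features, least in IMDP cells. As a check of the sort, 10 proliferation genes such as Mki67 and Top2a summed to 151 to 203 RPKM in DP, 89.9 to 161 in IMDP, 305 to 330 in SP and 314 to 387 in IMSP libraries. Kit, Ly6a and Cd27, the genes of the sorted surface proteins, were present in all 4 groups. Library numbers in the labels ran from 1 to 6 for imatinib and from 7 to 12 for vehicle, so treatment and library number cannot be told apart. Deviations from the group means correlated at 0.43 to 0.65 across genes in the 6 pairs of G0M+ and G0M- libraries with neighbouring numbers and at -0.44 to 0.05 in the 12 other such pairs within a treatment. The neighbours were DP1 with SP2, DP2 with SP3, DP3 with SP1, and each IMDP library with the IMSP library of its own number. What the numbers stand for is not given in the labels.

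Differences were tested with limma on log2(RPKM + 0.1) over 10072 genes, those with 3 or more libraries at 1 RPKM or above, with Benjamini-Hochberg adjustment over all of them and a threshold of 0.05. The pseudocount makes the fold changes of low genes smaller than the ratio of their RPKM. Cdkn2a and Cdkn2b did not pass this filter. Cdkn3 passed it only through SP and IMSP libraries, of which all 6 reached 1 RPKM against 0 of 6 G0M+ libraries, so it had to differ to be tested. Between DP and SP cells 1 of 6 members was called, and this was Cdkn3, with 2.26% of all genes tested called in that comparison. Between IMDP and IMSP cells 2 of 6 members were called, with 25.6% of all genes. In the contrast of G0M+ with G0M- cells averaged over treatments 2 of 6 members were called, with 26.3% of all genes. No member was called between IMDP and DP cells, where 0.367% of all genes were. None was called for imatinib against vehicle averaged over populations, where 0.854% of all genes were. In IMSP against SP cells and in the interaction of population and treatment, limma called no gene at all (0%), with 845 and 937 genes at an unadjusted p under 0.05, and limma-voom on recovered reads also called 0. Members whose 3 libraries did not overlap those of the other group numbered 2 between DP and SP (22.4% of all genes tested), 2 between IMDP and IMSP (39%), 1 between IMDP and DP (23.6%) and 0 between IMSP and SP (13.8%).

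**Figure D1:**
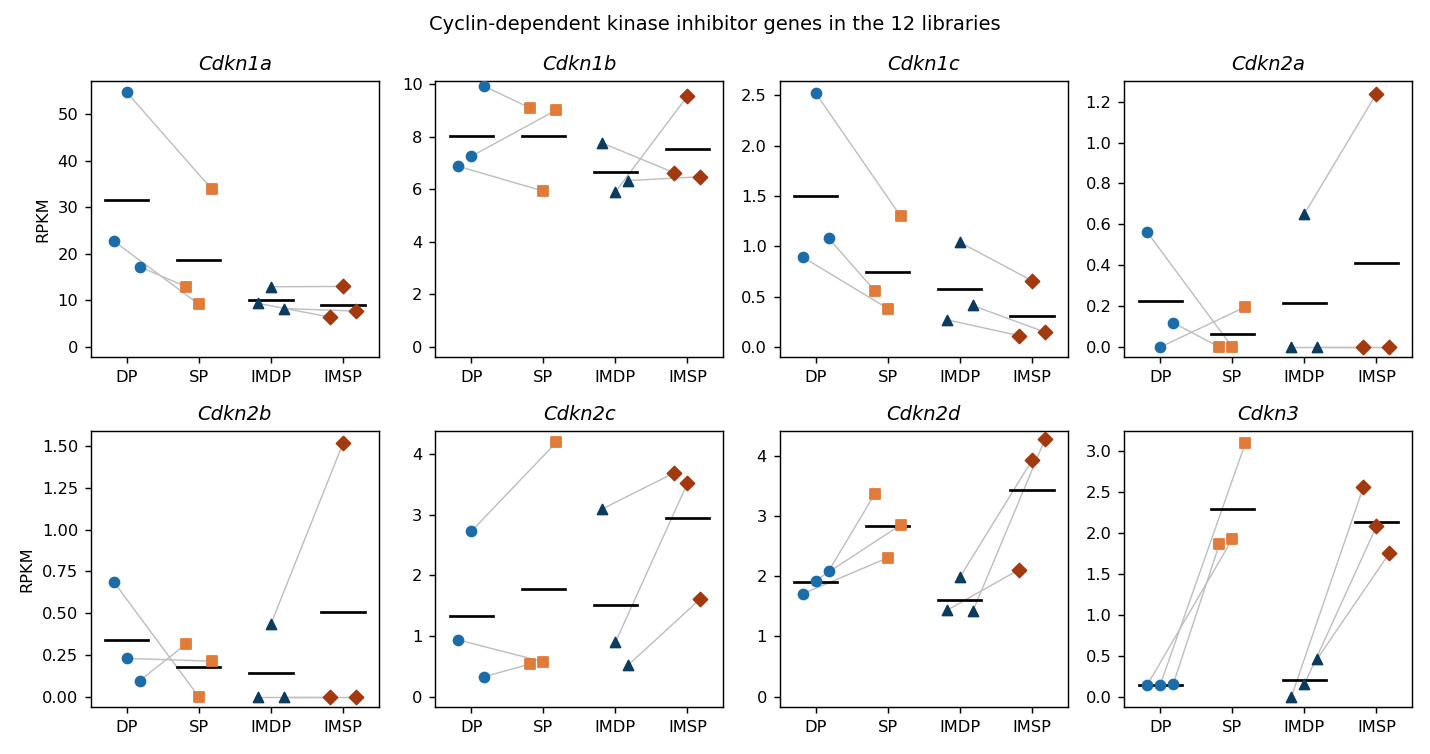
RPKM of the 8 inhibitor genes (y axis, a separate linear scale for each gene) in the 3 libraries of each group (x axis). Points are libraries, black bars are group means, and grey lines join libraries with neighbouring numbers. Cdkn3 and Cdkn2d separate G0M+ (DP, IMDP) from G0M- (SP, IMSP) libraries, Cdkn1c falls along all 6 grey lines, and Cdkn1b shows no common slope.

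Cdkn1a, which encodes p21, lies on the plus strand at chr17:29090976-29100727 (GRCm38, GENCODE M21). AC167363.2 on the minus strand overlaps it, and the libraries did not keep strand. Cdkn1a is the best known target of p53 among the CDK inhibitors. The files list it as 2 numbered copies, and the second held 5 reads, all in DP3. The 3 DP libraries held 22.7, 54.7 and 17.2 RPKM, from 519 to 1743 reads. The SP libraries held 13.0, 9.21 and 33.9 RPKM. Under imatinib the values were 9.39, 12.9 and 8.26 RPKM in IMDP and 6.43, 13.0 and 7.72 RPKM in IMSP cells. All 3 IMDP libraries thus lay below all 3 DP libraries, while DP overlapped SP, IMDP overlapped IMSP and IMSP overlapped SP. DP2 and SP3, which have neighbouring library numbers, were the highest libraries of their groups. The group means ran from 31.6 RPKM ± 20.2 (SD, n = 3) in DP through 18.7 ± 13.3 in SP and 10.2 ± 2.44 in IMDP to 9.05 ± 3.48 in IMSP cells.

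The log2 fold change of Cdkn1a was 0.80 (SE 0.49, limma adjusted p = 0.516) between DP and SP cells. It was 0.21 (SE 0.49, adjusted p = 0.778 by limma) between IMDP and IMSP cells. With the library-number block, which compares neighbouring libraries, the DP against SP difference passed the test (SE 0.17, limma adjusted p = 0.0238) and the IMDP against IMSP difference did not (limma adjusted p = 0.345). Joined with scaling of all libraries to the same median, the block gave 0.49 between IMDP and IMSP cells and called it (limma adjusted p = 0.0289). Their difference was not significant (interaction, limma adjusted p = 0.206 with the block and 0.786 without). Averaged over treatments the change was 0.50, with a limma adjusted p of 0.293 without the block and 0.00882 with it. Between IMDP and DP cells the log2 fold change was -1.46 (95% interval -2.54 to -0.39, limma adjusted p = 0.142). Averaged over populations the change under imatinib was -1.17 (SE 0.35), with an unadjusted p of 0.00576 and a limma adjusted p of 0.118. Neither treatment difference passed the threshold over all genes.

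A promoter window of Cdkn1a is shown because p21 is a textbook p53 target and other p53 targets were examined beside it. RefSeq gives the gene 2 windows, and the second, chr17:29093519-29093768, held no p53 half-site. The run is from the first, chr17:29090729-29090975 on the plus strand of GRCm38, with matches to the p53 half-site in capitals. It shows 247 of the 250 bases before the RefSeq start, because it stops at the GENCODE start of the gene.
Cdkn1a: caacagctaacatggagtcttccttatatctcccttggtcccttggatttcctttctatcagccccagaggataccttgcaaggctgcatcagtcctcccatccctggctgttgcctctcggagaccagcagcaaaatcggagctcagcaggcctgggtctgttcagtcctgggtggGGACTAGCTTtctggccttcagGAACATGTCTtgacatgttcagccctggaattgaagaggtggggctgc
Both matches read as a half-site on either strand, at 73 to 64 and 51 to 42 bases before the RefSeq start, which lies beyond the end of the run shown. Of 32851 RefSeq mouse promoter windows of 250 bases, 7.13% held at least 1 p53 half-site on either strand. RefSeq windows were found for 7 of the 8 members, 10 windows in all, and a half-site was also in that of Cdkn2d. A match is a run of letters and says nothing about binding.

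Of 20 other direct p53 target genes, 17 were tested, and in G0M+ against G0M- cells averaged over treatments 2 were called higher and 1 lower. Of all 10072 genes tested, 536 were called higher and 2112 lower in that contrast. Trp53inp1, a promoter of p53-dependent cell death, rose by 1.29 on the log2 scale (SE 0.28, limma adjusted p = 0.00775). Plk3, a stress-response kinase, rose by 0.98 (SE 0.22, limma adjusted p = 0.00969). Pmaip1, which encodes the apoptosis inducer NOXA, fell by 1.25 (SE 0.40, limma adjusted p = 0.0389), a call that was lost under each of the 3 other scalings, where its adjusted p was at most 0.130. Sesn1, a stress-response gene, had a log2 fold change of 0.37 (limma adjusted p = 0.0809), and passed the test under each of the 3 other scalings at 0.53 to 0.56 (limma adjusted p at most 0.0178). Under those scalings 3 or 4 of the 17 were called higher and 0 lower. The median over the 17 genes was 0.55, beside -0.13 over all genes tested. Between IMDP and IMSP cells 2 were called higher, Plk3 at 1.10 and Trp53inp1 at 1.20, and 2 lower, Bax, a gene of the mitochondrial cell death pathway, at -0.71 (limma adjusted p = 0.0156) and Pmaip1 at -2.09 (limma adjusted p = 0.0208). Under the 3 other scalings 2 or 3 were called higher and 0 lower in that comparison. Of all genes, 239 were called higher and 2342 lower there in the main fit. Between DP and SP cells none of the 17 was called, with 2.26% of all genes called.

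Cdkn1c, which encodes p57, lies on the minus strand at chr7:143458339-143461050, where the antisense gene Gm44732 overlaps it, and the library kit did not keep strand. It was low, with 4 to 79 reads a library. The DP libraries held 0.893, 2.52 and 1.08 RPKM and the SP libraries 0.559, 0.383 and 1.30 RPKM. The IMDP libraries held 0.271, 1.04 and 0.413 RPKM and the IMSP libraries 0.114, 0.659 and 0.148 RPKM. The groups overlapped in every comparison. Within each of the 6 neighbouring pairs the G0M+ library was the higher one, by 0.59 to 1.05 on the log2 scale. The highest libraries of the groups were DP2, SP3, IMDP2 and IMSP2, which make up 2 of these pairs.

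The log2 fold change of Cdkn1c was 0.93 (SE 0.66, limma adjusted p = 0.567) between DP and SP cells and 0.81 (limma adjusted p = 0.38) between IMDP and IMSP cells. Averaged over treatments it was 0.87, with a limma adjusted p of 0.178 without the library-number block and 0.0115 with it. With the block the 2 single comparisons stayed above the threshold, at limma adjusted p-values of 0.0959 and 0.0634. Under imatinib the log2 fold change was -1.27 in G0M+ cells (limma adjusted p = 0.301) and -1.16 in G0M- cells (limma adjusted p = 0.672). Averaged over populations it was -1.22, with an unadjusted p of 0.023 and a limma adjusted p of 0.201. These treatment differences did not pass the test.

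Across the 12 libraries Cdkn1a and Cdkn1c varied together, with Pearson's r = 0.92 and Spearman's rho = 0.92 on log2(RPKM + 0.1). Without the 2 libraries farthest from the median of Cdkn1a r was 0.88, and it was 0.90 over the 6 G0M+ and 0.94 over the 6 G0M- libraries. The libraries share groups and neighbours and are not independent, so these values are a description. The genes most like Cdkn1a in this measure were Spag9 (r = 0.96), Kdm5a (r = 0.95) and Nfkbiz (r = 0.95), a gene of the IkB family. Those most like Cdkn1c were Cish (r = 0.98), a cytokine-induced SOCS family gene, Phldb1 (r = 0.97) and Ccnl1 (r = 0.96).

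Cdkn1b, which encodes p27, lies on the plus strand at chr6:134920401-134925513. The DP libraries held 6.88, 7.25 and 9.92 RPKM and the SP libraries 9.09, 5.93 and 9.02 RPKM, from 242 to 450 reads. The IMDP libraries held 7.76, 5.90 and 6.33 RPKM and the IMSP libraries 6.63, 9.55 and 6.48 RPKM. The 4 groups overlapped throughout, and the G0M+ library was higher in 3 of the 6 neighbouring pairs. The means were 8.02 RPKM ± 1.66 in DP, 6.66 ± 0.973 in IMDP, 8.02 ± 1.80 in SP and 7.55 ± 1.73 in IMSP cells (SD, n = 3 each). Over all 12 libraries this was the smallest spread, on the log2 scale, of the 6 members tested. Within single groups other members could spread less. In DP cells the highest library was 1.22 times the lowest for Cdkn2d and 1.44 times for Cdkn1b.

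The log2 fold change of Cdkn1b was 0.01 between DP and SP cells, with a 95% interval of -0.47 to 0.49 (limma adjusted p = 0.991). Between IMDP and IMSP cells it was -0.16, with an interval of -0.65 to 0.32 (limma adjusted p = 0.607), a sign that turned under other scalings of the libraries. It was -0.25 between IMDP and DP cells (limma adjusted p = 0.549) and -0.08 between IMSP and SP cells (limma adjusted p = 0.964). The most alike genes were H1fx (r = 0.89), Phf13 (r = 0.88) and Stk35 (r = 0.85), over 12 libraries.

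Cdkn2a and Cdkn2b lie next to each other on the minus strand of chromosome 4, at chr4:89274471-89294653 and chr4:89306299-89311039. Cdkn2a encodes both p16 and, in another reading frame, p19ARF, which guards p53, and a value per gene cannot tell these transcripts apart. Cdkn2a had 0 reads in 7 of the 12 libraries. The DP libraries held 0.562, 0 and 0.119 RPKM and the SP libraries 0, 0 and 0.196 RPKM, from 10, 0, 2, 0, 0 and 3 reads. Under imatinib all reads came from IMDP2 with 0.651 RPKM (11 reads) and IMSP2 with 1.24 RPKM (16 reads). A count of 0 allows up to 3 reads, which is 0.128 to 0.204 RPKM of Cdkn2a in these 7 libraries, for counting error only.

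Cdkn2b had 0 reads in 5 libraries. The DP libraries held 0.687, 0.229 and 0.0970 RPKM and the SP libraries 0.314, 0 and 0.213 RPKM. Under imatinib its reads again came from IMDP2 with 0.434 RPKM (9 reads) and IMSP2 with 1.52 RPKM (24 reads). IMDP2 and IMSP2 have neighbouring library numbers, and neither gene was detected in the other 4 imatinib libraries. The highest DP library was DP1 for both genes. In an exact permutation test over 6 against 6 libraries, two-sided, the difference of G0M+ from G0M- libraries on the log2 scale was 0.24 for Cdkn2a (p = 0.773) and 0.06 for Cdkn2b (p = 0.935). Imatinib against vehicle gave 0.20 for Cdkn2a (exact permutation p = 0.848) and -0.49 for Cdkn2b (exact permutation p = 0.578). With 3 against 3 libraries the smallest p is 0.1, so single groups could not reach the threshold. No permutation test of these 2 genes passed the threshold. With so few reads, often in 1 library of a group, the tests do not exclude a difference.

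Cdkn2c, which encodes p18, lies on the minus strand at chr4:109660876-109667189. The DP libraries held 0.935, 2.72 and 0.330 RPKM and the SP libraries 0.539, 0.576 and 4.19 RPKM. The IMDP libraries held 3.09, 0.895 and 0.524 RPKM and the IMSP libraries 3.69, 3.51 and 1.61 RPKM. Libraries of one group differed by up to 8.25-fold, in DP cells, and the groups overlapped in every comparison. As for Cdkn1a, DP2 and SP3 were the highest libraries under vehicle. The G0M+ library was lower in 5 of the 6 neighbouring pairs and higher in the pair of DP1 with SP2.

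The log2 fold change of Cdkn2c was -0.19 between DP and SP cells (SE 0.85, limma adjusted p = 0.942), and its sign turned without DP3 or SP3. Between IMDP and IMSP cells it was -1.19 (limma adjusted p = 0.317), and with the library-number block this difference passed the test (SE 0.34, limma adjusted p = 0.0198). When the block was joined with scaling to the same median, the call was lost. Averaged over treatments the change was -0.69, with a limma adjusted p of 0.407 without the block, 0.0423 with it and 0.0864 when it was joined with scaling. Between IMDP and DP cells it was 0.22 (limma adjusted p = 0.912) and between IMSP and SP cells 1.22 (limma adjusted p = 0.735). The genes most like Cdkn2c were Mtmr9 (r = 0.87), Ccnh (r = 0.87) and Fam76b (r = 0.85), over 12 libraries.

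Cdkn2d, which encodes the INK4 protein p19, lies on the minus strand at chr9:21288410-21291407. The DP libraries held 1.71, 1.93 and 2.09 RPKM and the SP libraries 3.37, 2.31 and 2.86 RPKM. The IMDP libraries held 1.44, 1.99 and 1.42 RPKM and the IMSP libraries 2.11, 3.93 and 4.28 RPKM. Each of the 6 G0M+ libraries was below each of the 6 G0M- libraries, although the closest values, 2.09 in DP3 and 2.11 in IMSP1, were almost equal. The means were 1.91 RPKM ± 0.190 in DP, 1.61 ± 0.322 in IMDP, 2.84 ± 0.532 in SP and 3.44 ± 1.16 in IMSP cells (SD, n = 3 each).

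The log2 fold change of Cdkn2d was -1.0 in IMDP against IMSP cells (95% interval -1.57 to -0.44, limma adjusted p = 0.0175). Between DP and SP cells the log2 fold change was -0.54 (SE 0.26, limma adjusted p = 0.401). The interaction had a limma adjusted p of 0.668, so the 2 differences were not shown to be unequal. Averaged over treatments the change was -0.77 (SE 0.18, limma adjusted p = 0.0114), and this call was lost with limma-voom (-0.60, limma adjusted p = 0.111) and with reads on listed features as denominator (-0.59, limma adjusted p = 0.0608). The IMDP against IMSP call was lost in 4 alternatives, at limma adjusted p-values of 0.0997 with scaling to the same median, 0.126 with reads on listed features as denominator, 0.25 with limma-voom and 0.055 with the 2 groups fitted alone. It was also lost without IMDP3 (limma adjusted p = 0.0582) and without IMSP3 (limma adjusted p = 0.0555). Imatinib against vehicle gave -0.24 in G0M+ cells (limma adjusted p = 0.631) and 0.22 in G0M- cells (limma adjusted p = 0.892). The most alike genes were Atl2 (r = 0.92), Mpst (r = 0.90) and Wdpcp (r = 0.90), over 12 libraries. Within a population these 3 had r = 0.67, 0.24 and 0.43 over the 6 G0M+ and r = 0.86, 0.92 and 0.91 over the 6 G0M- libraries.

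Cdkn3, the phosphatase gene, lies on the plus strand at chr14:46760541-46771669. Its promoter is shown because many genes expressed late in the cell cycle carry a CHR element, often together with CCAAT boxes. The part of these motifs in the level of Cdkn3 was not tested. The run is the 250 bases before the RefSeq start, chr14:46760291-46760540 on the plus strand of GRCm38. CCAAT on either strand and a CHR match (TTTGAA or TTCGAA on either strand) are in capitals.
Cdkn3: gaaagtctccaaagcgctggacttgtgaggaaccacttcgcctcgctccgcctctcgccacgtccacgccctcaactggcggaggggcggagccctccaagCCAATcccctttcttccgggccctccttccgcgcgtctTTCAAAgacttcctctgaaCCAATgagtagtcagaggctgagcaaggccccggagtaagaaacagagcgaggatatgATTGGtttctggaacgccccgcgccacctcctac
The CHR match lies 111 to 106 bases before the start on the minus strand. The CCAAT matches lie 149 to 145 and 92 to 88 bases before the start on the plus strand and 34 to 30 bases before it on the minus strand. Of the 32851 windows, 17.1% held a CHR match and 33.8% a CCAAT on either strand. Among the 7 members with a window, 2 held a CHR match (Cdkn3 and Cdkn2b) and 3 a CCAAT (Cdkn3, Cdkn1b and Cdkn2d). An E2F motif (TTTGGCGC, TTTCGCGC, TTTCCCGC or TTTGCCGC on either strand) was in 1.86% of the windows and in that of Cdkn2a. A FOXO motif (TGTTTAC on either strand) was in 3.17% of the windows and in none of the members'. Only the bases before the start were searched, and these matches are descriptions.

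In each DP library Cdkn3 had 2 reads, which gave 0.143, 0.144 and 0.152 RPKM. The SP libraries held 1.86, 1.92 and 3.09 RPKM, from 34, 29 and 37 reads. The IMDP libraries held 0, 0.151 and 0.464 RPKM, from 0, 2 and 7 reads, and the count of 0 in IMDP1 allows up to 0.261 RPKM. The IMSP libraries held 2.56, 2.08 and 1.75 RPKM, from 40, 21 and 21 reads. No G0M+ library reached the lowest G0M- library, under either treatment. Summed over libraries, Cdkn3 had 6 reads in DP and 100 in SP cells, so SP cells had 15.1 times more reads relative to depth (95% exact conditional interval 6.68 to 42.0). It had 9 reads in IMDP and 82 in IMSP cells, 9.61 times more relative to depth in IMSP (interval 4.82 to 21.8). These intervals cover counting error only, since PCR copies cannot be told apart.

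On the log2 scale Cdkn3 fell by 3.24 in DP against SP cells (SE 0.54, limma adjusted p = 0.00769). It fell by 3.19 in IMDP against IMSP cells (SE 0.54, limma adjusted p = 0.00274). Averaged over treatments the change was -3.21 (SE 0.39, limma adjusted p = 0.000166), lower in 6 of 6 neighbouring pairs by 1.71 to 4.73. Cdkn3 reached the minimum of 1 RPKM only in G0M- libraries, so passing that filter already required a difference. With no filter on low values the limma adjusted p was 0.0169 under vehicle, 0.00433 under imatinib and 0.000346 averaged over treatments. The DP against SP call was lost with a pseudocount of 0.01, at a limma adjusted p of 0.115. Between treatments the log2 fold change was -0.03 between IMDP and DP (limma adjusted p = 0.985) and -0.08 between IMSP and SP cells (limma adjusted p = 0.985). The 95% interval of the latter was -1.27 to 1.11. In bulk RNA, fewer expressing cells and less RNA per cell cannot be told apart. The most alike genes were Ecm2 (r = 0.94), Hist1h4a (r = 0.94), a replication-dependent histone gene, and Rbm19 (r = 0.93). Within a population the same 3 genes had r = 0.61, 0.64 and 0.63 over the 6 G0M+ libraries and r = 0.058, -0.033 and -0.031 over the 6 G0M- libraries.

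**Figure D2:**
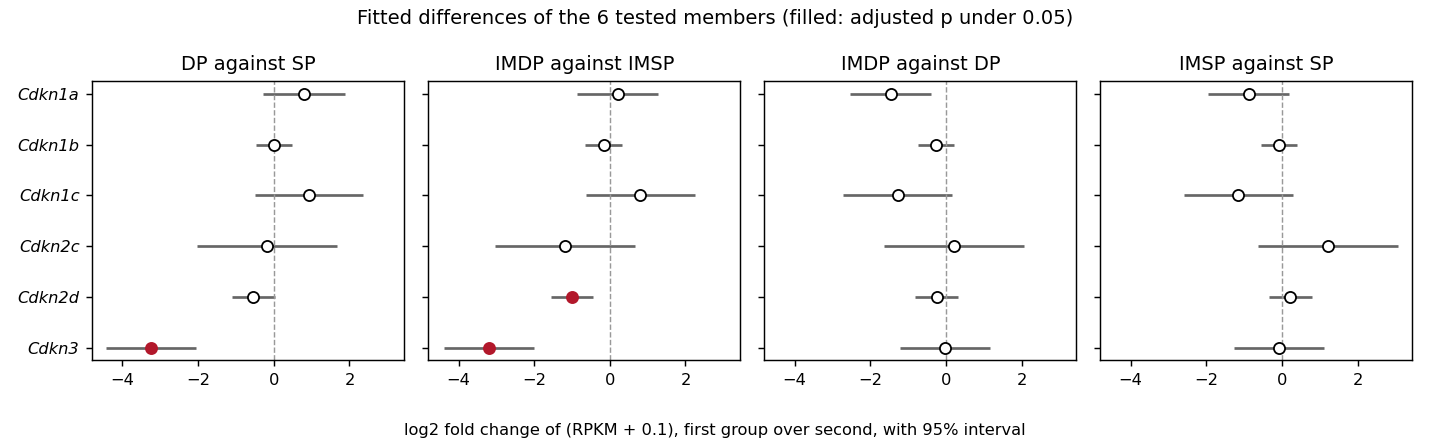
Log2 fold change of RPKM + 0.1 (x axis) for the 6 tested members in 4 comparisons, with 95% intervals from limma. Filled points are adjusted p-values under 0.05. Cdkn3 is filled at -3.24 and -3.19 in the 2 population comparisons and Cdkn2d in IMDP against IMSP cells, and no point is filled in the 2 treatment comparisons.

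With the library-number block, 2 of 6 members were called between DP and SP cells (Cdkn1a and Cdkn3), 3 between IMDP and IMSP cells (Cdkn2c, Cdkn2d and Cdkn3) and 5 averaged over treatments, all but Cdkn1b. The block raised the share of all genes called as well, to 9.73%, 44.1% and 46.9%, and called 0% in the interaction. Joined with scaling to the same median, it called Cdkn1a and Cdkn3 between DP and SP cells, and Cdkn1a, Cdkn1c, Cdkn2d and Cdkn3 between IMDP and IMSP cells and averaged over treatments. Of all genes this fit called 14.7%, 39% and 45.2% in the same order.

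In RPKM the Cip/Kip genes made up most of the inhibitor RNA. The 8 members summed to 45.0 RPKM ± 21.3 in DP, 21.1 ± 3.37 in IMDP, 34.6 ± 17.9 in SP and 26.3 ± 7.93 in IMSP cells (SD, n = 3 each). Cdkn1a alone was 66.7% ± 11.6 of the sum in DP, 48.1% ± 5.60 in IMDP, 50.8% ± 9.62 in SP and 33.9% ± 3.56 in IMSP cells. Cdkn1b was 20.8% ± 10.8, 32.1% ± 6.53, 25.8% ± 8.16 and 29.0% ± 1.97 in the same order. The 4 INK4 genes summed to 3.80 RPKM ± 1.13 in DP, 3.48 ± 1.36 in IMDP, 4.85 ± 2.35 in SP and 7.30 ± 2.51 in IMSP cells. The share of Cdkn3 was 0.371% ± 0.147 (DP) and 1.10% ± 1.39 (IMDP) in G0M+ cells, against 7.19% ± 2.00 (SP) and 8.56% ± 3.06 (IMSP) in G0M- cells. In IMSP cells Cdkn1a and Cdkn1b overlapped, so their order there is not settled.

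**Figure D3:**
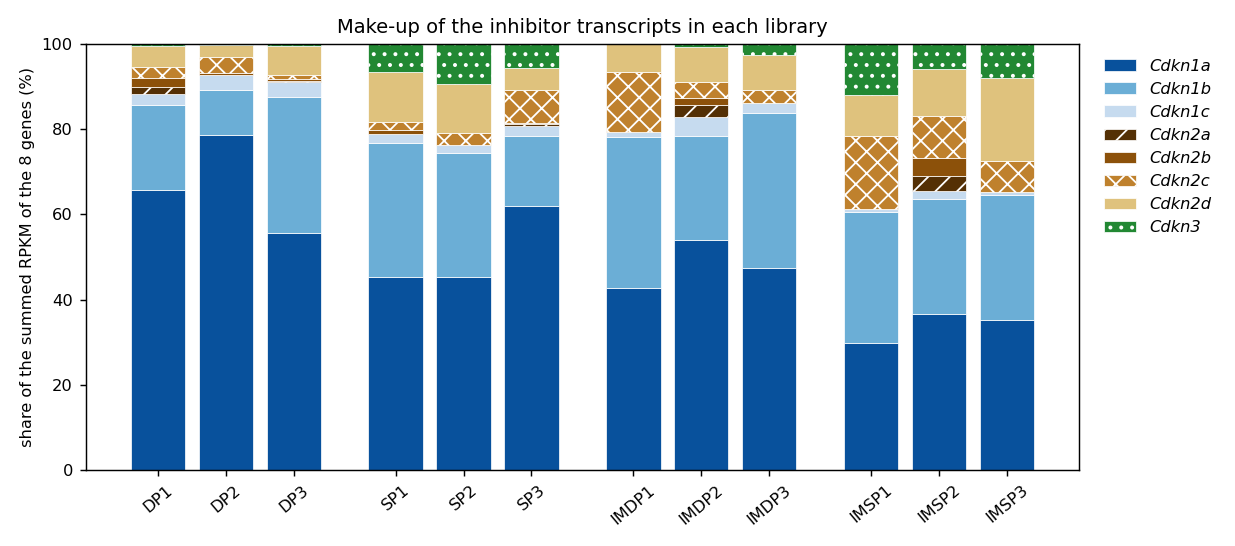
Share of the summed RPKM of the 8 genes (y axis, %) in each of the 12 libraries (x axis). Each bar is 1 library and adds up to 100%. Cdkn1a takes 55.5% to 78.7% of the DP and 29.9% to 36.7% of the IMSP bars, and the Cdkn3 segment is 5.64% or more in every SP and IMSP bar but at most 2.67% in a DP or IMDP bar.

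Of 18 genes for CDKs, cyclins and other partners, and the RB family, all were tested. Between DP and SP cells 3 were called lower and between IMDP and IMSP cells 8, with none higher in either. Averaged over treatments 7 were lower and 0 higher, and under the 3 other scalings of the libraries 6 were lower and 1 higher. Of all 10072 genes tested, 2112 were lower and 536 higher averaged over treatments in the main fit. Cdk1, the mitotic kinase, had 5.09 RPKM ± 2.94 in DP and 2.74 ± 1.07 in IMDP cells, against 18.7 ± 0.414 in SP and 18.4 ± 0.771 in IMSP cells. Averaged over treatments it changed by -2.38 on the log2 scale (SE 0.23, limma adjusted p = 3.96e-05). Its partners Ccnb1, Ccnb2 and Ccna2, cyclins of S phase and mitosis, had changes of -3.53, -3.07 and -3.47 (limma adjusted p of 0.000184 or lower). The median of the list was -0.19, beside -0.13 over all genes.

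Of 16 genes for ubiquitin ligases and other components that turn these proteins over, 7 were lower and 0 higher averaged over treatments, and 4 were lower and 0 or 1 higher under the 3 other scalings. In the main fit 2112 of all 10072 genes were lower and 536 higher. Cdc20, an activator of the anaphase-promoting complex, had a log2 fold change of -2.88 (SE 0.25, limma adjusted p = 2.93e-05). Cks1b, the cofactor of SKP2 in the degradation of p27, had 18.7 RPKM ± 6.11 in DP and 10.2 ± 2.72 in IMDP cells, against 34.1 ± 3.15 in SP and 39.3 ± 1.58 in IMSP cells. This was a change of -1.44 (SE 0.16, limma adjusted p = 9.32e-05). Cops5, which binds p27, had -0.51 (limma adjusted p = 0.00486) and Ddb1, a subunit of the CUL4 ligase that degrades p21, -0.40 (limma adjusted p = 0.0103). The median of the list was -0.32, beside -0.13 over all genes.

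Of 20 transcription and chromatin factors known to act on the inhibitor genes, 2 were lower and 0 higher averaged over treatments. Of all 10072 genes tested, 2112 were lower and 536 higher. Ezh2, the polycomb methyltransferase that silences Cdkn2a, had a log2 fold change of -0.56 (SE 0.13, limma adjusted p = 0.0109). Cebpa, a myeloid factor, had -1.41 (limma adjusted p = 0.036), a call not kept under all other scalings (adjusted p at most 0.0567). Foxo3, which acts on Cdkn1b, had 0.40 (limma adjusted p = 0.103), and was called under each of the 3 other scalings at 0.56 to 0.59 (limma adjusted p at most 0.022). For Hes1, a repressor known to act on Cdkn1b, the value was 1.19 (limma adjusted p = 0.128). Under the other 3 scalings 2 of the 20 were called higher and 1 or 2 lower. The median of the list was 0.08, beside -0.13 over all genes.

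**Figure D4:**
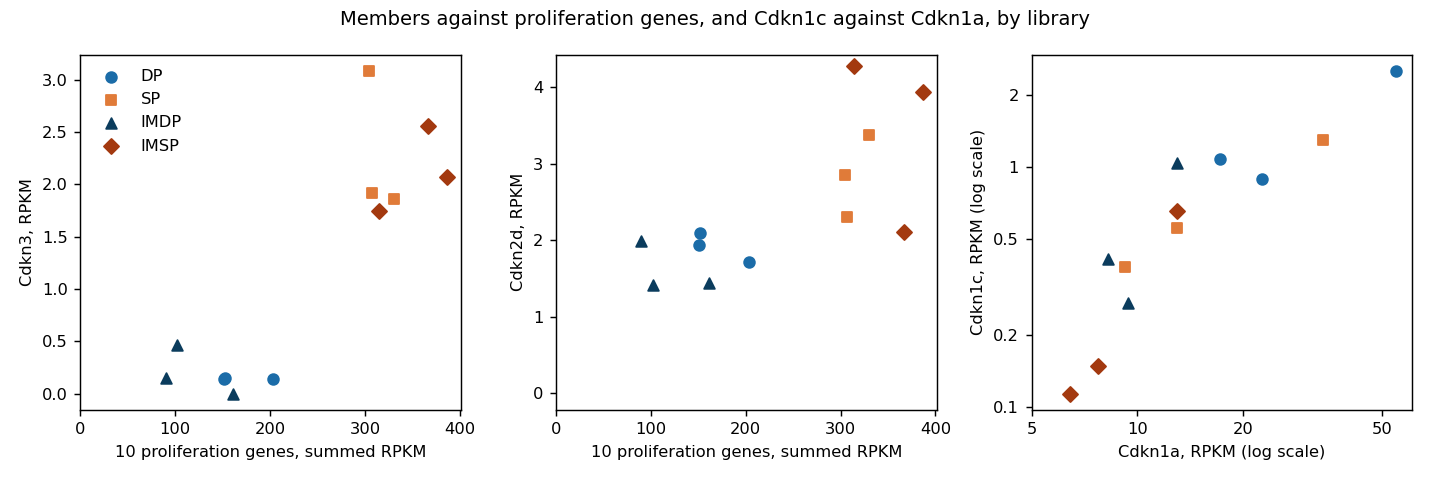
Left and middle, RPKM of Cdkn3 and Cdkn2d (y axes) against the summed RPKM of 10 proliferation genes (x axes), 1 point per library. Right, Cdkn1c against Cdkn1a in RPKM on log scales. G0M+ libraries (at most 203 RPKM of proliferation genes) and G0M- libraries (at least 305) form separate groups for Cdkn3 and Cdkn2d, whereas the 4 groups mix along one line for Cdkn1a and Cdkn1c.

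Of the 10 proliferation genes, 8 were called lower and 0 higher averaged over treatments, with Mki67 at -2.42 and Top2a at -2.67 on the log2 scale (limma adjusted p of 1.8e-05 or lower). Cdkn2d and Cdkn3 had r = 0.72 over all 12 libraries. Within a population they did not vary together in this way, with r = 0.02 over the 6 G0M+ and r = -0.48 over the 6 G0M- libraries, as a description. Some of the markers of other blood cells were called between the populations too, in numbers that depended on the scaling. The 10 mast cell and basophil markers summed to 76.3 to 329 RPKM in DP, 14.9 to 199 in IMDP, 10.5 to 23.0 in SP and 7.92 to 24.4 in IMSP libraries, with 4 of them at 0 in all SP and 5 in all IMSP libraries. Of the 7 tested, 4 were called higher in G0M+ cells, 1 with limma-voom and 5 with the other 2 scalings. Among these, Cma1 averaged 0 RPKM in SP and in IMSP cells, and Prss34 0.046 in SP and 0 in IMSP cells. Both thus passed the filter only through G0M+ libraries and had to differ to be tested. The 10 macrophage markers summed to 6.36 to 17.4 RPKM in DP, 18.8 to 22.3 in IMDP, 3.80 to 8.84 in SP and 6.88 to 38.2 in IMSP libraries, and 3 of 5 tested were called higher, or 1 with limma-voom and 3 with the other 2 scalings. Of the 3, C1qc averaged 0 RPKM in SP and in IMSP cells, so it too had to differ to be tested. Erythroid markers summed to 218 to 292 RPKM in DP, 67.2 to 497 in IMDP, 101 to 182 in SP and 26.0 to 112 in IMSP libraries, with 1 of 8 called higher, or 2 under each other scaling. Neutrophil granule markers summed to 33.3 to 666 RPKM in DP, 36.0 to 125 in IMDP, 148 to 1268 in SP and 211 to 966 in IMSP libraries, with 3 of 5 called lower but 0 of 5 under each of the 3 other scalings. Of the lymphoid markers neither of the 2 tested was called, and of the genes of the sort Ly6a (Sca1) rose by 1.42 (limma adjusted p = 0.00544). The part of these cells in the members' values was not tested.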

How the data were processed

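The authors sequenced the libraries on a NextSeq and deposited 1 RPKM value per feature and library. Their methods name CLC Genomics Workbench and GRCm38, and their reporting summary names HISAT2 and featureCounts, so the tool behind the files is not settled. Nextera libraries of double-stranded cDNA do not keep strand. Read numbers were recovered from the steps of the deposited RPKM: whole reads were found for all 17735 features above 0, and the recovery was tested on simulated data (99.9% of 2925 features exact). At these depths 1 read per kb is 0.0486 to 0.088 RPKM.

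Numbered copies of a gene were summed. The filter kept genes at 1 RPKM or more in 3 or more libraries. R 4.3.3 and limma 3.58.1 fitted 4 group means to log2(RPKM + 0.1), with a variance trend. On simulated data of 10072 genes, 85.5% of the 4-fold changes were called for DP against SP. Members under the filter had exact permutation tests. Listed genes are named by the smallest adjusted p averaged over treatments, at most 4 a list, and alike genes by the 3 highest correlations.

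The members, gene lists and alternatives were chosen with earlier results of these data known. The library-number block takes its pairing from the numbers in the sample descriptions, where all 6 neighbouring pairs correlated above 0.1. Replicate numbers in the titles paired only IMDP with IMSP libraries, where they are the same pairs. Figures were drawn with matplotlib 3.10.9. The promoters are from RefSeq (GRCm38.p6).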

Additional observations from a re-analysis of the deposited data

How the results depend on the processing

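Members called between DP and SP cells numbered 1 in the main analysis, 0 with a pseudocount of 0.01, and 2 with the library-number block, alone or joined with scaling to the same median. In the same order these fits called 228, 211, 980 and 1479 of all 10072 genes. Between IMDP and IMSP cells 2 members were called, but 1 after scaling libraries to the same median, with limma-voom, with only the groups compared, and with reads on listed features as denominator, and 4 with the block joined with scaling. Of all genes the main fit called 2581 there, and these fits 1560, 1544, 1553, 1562 and 3932 in turn. Leaving out 1 library gave 1 to 2 members, the 1 being without IMDP3 or IMSP3. Averaged over treatments 2 members were called, but only Cdkn3 (1) with limma-voom and with reads on listed features as denominator, where Cdkn2d was lost, 5 with the library-number block and 4 with the block joined with scaling. There the main fit called 2648 of all genes, and these fits 2502, 2382, 4721 and 4551 in turn. In all other comparisons no alternative called a member. The denominator of listed reads and the joined block were chosen after seeing the data.

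The replicate block, paired by the number in the sample title, called 1, 2 and 2 members in these comparisons, as many as the unpaired fit, and changed no call. Same-numbered DP and SP libraries correlated at -0.30 to -0.10, so this number does not pair them.

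Signs turned only for values not called in the main analysis, of which Cdkn1a between IMDP and IMSP cells was called in 1 alternative, the block joined with scaling. Cdkn1b between IMDP and IMSP cells became 0.11 with scaling to the same median, with or without the block, 0.15 with limma-voom and 0.16 with reads on listed features. Left-out libraries gave Cdkn1b -0.19 to 0.11 between DP and SP, -0.28 to 0.014 between IMDP and IMSP and -0.28 to 0.022 between IMSP and SP cells. They gave Cdkn2c -0.88 to 0.72 between DP and SP and -0.45 to 0.91 between IMDP and DP cells. Cdkn2c between DP and SP became 0.11 with limma-voom. Cdkn1a between IMDP and IMSP ranged from -0.0013 to 0.50. Cdkn3 between IMDP and DP cells became 0.054 with a pseudocount of 1, 0.079 with scaling, 0.028 with limma-voom and 0.11 with reads on listed features, and ranged from -0.64 to 0.61 over left-out libraries. Between IMSP and SP it ranged from -0.21 to 0.15. The Cdkn2b difference of G0M+ from G0M- libraries became -0.050 with a pseudocount of 1. The cause was not tested.

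Scaling to the same median moved the median over all genes, on the log2 scale, from -0.25 to 0.02 in IMDP against IMSP cells, and calls from 239 higher of 2581 to 635 higher of 1560. Averaged over treatments they went from 536 higher of 2648 to 1116 higher of 2360. Calls between IMDP and DP cells fell from 37 to 2. Over left-out libraries the numbers of genes called ranged from 125 (without DP3) to 264 for DP against SP, from 902 (without IMSP1) to 2962 for IMDP against IMSP and from 0 (without IMDP3) to 189 (without IMDP1) for IMDP against DP cells. They ranged from 1583 (without DP3) to 3061 averaged over treatments, and from 12 (without DP2) to 143 (without IMSP2) for imatinib against vehicle. With 3 libraries a group and at most 40 reads of Cdkn3 and 24 of Cdkn2a or Cdkn2b in a library, small changes of these genes cannot be seen.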
